A study of Mus musculus with 50 samples.

Results

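The genes described here encode the secreted Wnt ligands, the 2 proteins that make and export them, their cell-surface receptors and the secreted proteins that help or block them, together with the Dishevelled proteins that act just inside the membrane. Members were chosen by symbol: the Wnt, Fzd, Sfrp, Dkk, Dvl and Rspo families, Lrp5, Lrp6, Porcn and Wls. The pattern matched 50 symbols, of which the 2 antisense symbols, Fzd10os and Rspo4os, were left out. This gave 48 genes of 55421 in the 3 deposited TPM tables: 19 ligands, 2 ligand processing genes, 12 receptors, 4 secreted agonists, 8 secreted inhibitors and 3 intracellular transducers. The deposited FPKM table lists 32 of the 48 among its 17043 genes, including 8 of the ligands and all 12 receptors.

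Expression was measured by RNA sequencing in mouse embryonic stem (ES) cells, in 32 libraries that fall into 13 groups. In the first set, V6.5 ES cells grown in a defined medium with inhibitors of MEK and GSK3 (2i) carried a short hairpin RNA against GFP as the mock control (shGFP, n = 6), against β-catenin (shBcat, n = 2), against E2F6 (shE2F6, n = 2) or against the heterochromatin protein that the labels call HP1r (shHP1r, n = 2). In the second, ES cells labelled QKO, a name that the labels do not spell out, carried shBcat (n = 3) or shGFP (n = 3) in 2i and are labelled 48 h, with no stated starting point. In the third, V6.5 cells without a named hairpin were in 2i or in the medium for epiblast-like cells (epiLC) for 24 or 48 h (n = 2 each). In the fourth, V6.5 cells with shBcat were in epiLC medium for 24, 48 or 96 h, beside 96 h epiLC cells with no hairpin named (n = 2 each). All hairpin groups of the first 2 sets were therefore kept with a GSK3 inhibitor, which itself raises β-catenin, and no group of the fourth set carried a mock hairpin. The labels do not say whether replicates were separate cultures, so p-values measure only how far these libraries differ among themselves, and that spread may be technical.

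Wnt proteins are given a lipid by Porcupine (Porcn) and carried to the cell surface by Wntless (Wls). They bind a Frizzled receptor and, for signalling through β-catenin, the co-receptors Lrp5 and Lrp6. Dishevelled is then recruited, the complex that destroys β-catenin is held back, and β-catenin acts with Tcf and Lef proteins on target genes such as Axin2. Secreted Frizzled-related proteins (Sfrp) bind Wnt ligands, Dickkopf proteins (Dkk) bind Lrp5 and Lrp6, and R-spondins (Rspo) enhance the response. In ES cells a GSK3 inhibitor replaces this input and holds cells in the naive state, and Wnt3 and Wnt8a are ligands of the early embryo around gastrulation.

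Depth is unknown, since the files give no counts. A library of the first set had 12446 to 14151 genes at 1 FPKM or more, and one of the other sets 13924 to 15351 genes at 1 TPM or more. Mitochondrial transcripts took 19.3% to 20.4% of the summed FPKM in shGFP replicates 3 and 4 and 22.3% to 22.9% with shE2F6. The remaining libraries of that table ran from 6.23% to 10.3%. The 6 shGFP libraries fell into 3 close pairs, 1 with 2, 3 with 4 and 5 with 6. Their median absolute log2 difference over genes was 0.05 to 0.07 within a pair and 0.16 to 0.37 between pairs, while the 2 shBcat libraries differed by 0.05. Each hairpin lowered its target: Ctnnb1, the β-catenin gene, was 6.60 against 116 FPKM in V6.5 cells in 2i, 64.4 against 505 TPM in QKO cells and 144 against 445 TPM in 96 h epiLC cells. E2f6 was 3.06 against 10.0 FPKM with shE2F6, and Cbx3, which encodes HP1 gamma, was 6.93 against 63.5 FPKM with shHP1r. Naive pluripotency markers summed to 1260 to 1270 TPM in the 2i libraries without a hairpin and to 160 to 236 TPM in their 24 and 48 h epiLC libraries, and epiblast-like markers to 88.8 to 92.5 and 357 to 899 TPM.

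Promoter sequence is shown for 3 members, chosen for a lower level with shBcat in 2i or for a Tcf/Lef motif. Fzd10, a Frizzled receptor (chr5:128601106-128604093, GRCm38.p6), and Wnt5b, a ligand (chr6:119432531-119544824), were lower with shBcat in 2i, and Wnt5b and Wnt11, a ligand, each have 1 window with the motif. The table holds 1 window for Fzd10, 3 for Wnt5b and 2 for Wnt11, each at an annotated start, and for the latter genes the window with the motif is shown. The Wnt5b window lies inside the gene's span, at an internal start, and not at its outermost end. The Wnt11 window ends at base 98835111, past the gene's outermost start at base 98835084, so its own start is internal too. Each sequence is the 250 bases before that window's start, from RefSeq's table on GRCm38.p6, written 5′ to 3′ on the gene's strand, with any CTTTGAT, the core of the Tcf/Lef site, in capitals (ATCAAAG where it lies on the other strand).
Fzd10 (chr5:128600856-128601105, plus strand): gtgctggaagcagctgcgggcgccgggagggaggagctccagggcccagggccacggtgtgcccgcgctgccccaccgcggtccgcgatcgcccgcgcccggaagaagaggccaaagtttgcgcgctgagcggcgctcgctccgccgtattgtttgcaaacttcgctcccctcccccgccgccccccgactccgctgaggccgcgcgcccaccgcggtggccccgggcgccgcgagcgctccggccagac
Wnt5b (chr6:119449387-119449636, minus strand): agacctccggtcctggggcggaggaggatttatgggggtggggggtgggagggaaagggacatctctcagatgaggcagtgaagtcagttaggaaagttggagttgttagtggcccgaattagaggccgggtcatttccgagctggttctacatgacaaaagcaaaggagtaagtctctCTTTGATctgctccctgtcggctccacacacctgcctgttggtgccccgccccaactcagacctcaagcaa
Wnt11 (chr7:98834862-98835111, plus strand): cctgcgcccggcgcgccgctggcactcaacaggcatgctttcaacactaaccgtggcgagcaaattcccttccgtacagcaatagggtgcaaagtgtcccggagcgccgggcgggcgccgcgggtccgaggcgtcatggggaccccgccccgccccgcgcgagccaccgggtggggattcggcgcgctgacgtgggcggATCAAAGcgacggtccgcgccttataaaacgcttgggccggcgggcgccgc
The match in Wnt5b begins 71 bases before the start of its window and that in Wnt11 51 bases before its own, while the Fzd10 window holds none. Of the 48 members, 31 had an entry, with 34 windows in all, and these were the 2 windows with a match. Over all 32851 windows of the table, 3.21% held CTTTGAT on either strand. A match is a description of the letters and not a site, and chromatin binding was not analysed here.

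Taking a group mean of at least 1 FPKM or TPM as expressed, 18 of the 48 members were expressed in every one of the 9 groups with TPM values. These were Porcn and Wls, 8 Frizzled receptors (Fzd2, Fzd3, Fzd4, Fzd5, Fzd6, Fzd7, Fzd9 and Fzd10), Lrp5 and Lrp6, Rspo1, Sfrp1 and Sfrp2, and the 3 Dishevelled genes. No ligand was among them. A further 15 members were expressed in some groups: the ligands Wnt3, Wnt3a, Wnt4, Wnt5a, Wnt5b, Wnt7b, Wnt8a, Wnt9a and Wnt11, the receptors Fzd1 and Fzd8, and Rspo2, Dkk3, Sfrp4 and Sfrp5. The other 15 stayed below 1 TPM in each group mean: Wnt1, Wnt2, Wnt2b, Wnt6, Wnt7a, Wnt8b, Wnt9b, Wnt10a, Wnt10b, Wnt16, Rspo3, Rspo4, Dkk1, Dkk2 and Dkk4. The highest of these was Rspo4, at 0.925 TPM, and Dkk1, a classic secreted inhibitor, reached 0.495 TPM.

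The most abundant ligand was Wnt8a, with a group mean of 81.7 TPM in control epiLC cells at 96 h. Other high group means were 67.8 TPM for Sfrp1 in 2i, 65.3 TPM for Fzd7 in 24 h epiLC cells, 59.7 TPM for Wls in QKO shGFP cells, 47.3 TPM for Fzd2 in 48 h epiLC cells and 47.2 TPM for Dvl2 in QKO shBcat cells. TPM and FPKM are values per transcript length, so genes can be set against each other within a library on this scale. The number of expressed ligands was 5 in V6.5 cells in 2i, 3 at 24 h of epiLC, 7 at 48 h and 6 at 96 h. It was 1 in QKO shBcat and 3 in QKO shGFP cells. Of the 32 members in the FPKM table, 17 were expressed with shGFP, 17 with shBcat, 16 with shE2F6 and 21 with shHP1r. Of the 8 ligands listed there, 2, 0, 1 and 3 were expressed in the same order. The TPM tables were each normalised on their own, so levels in different tables stand side by side and were not tested against each other.

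**Figure D1:**
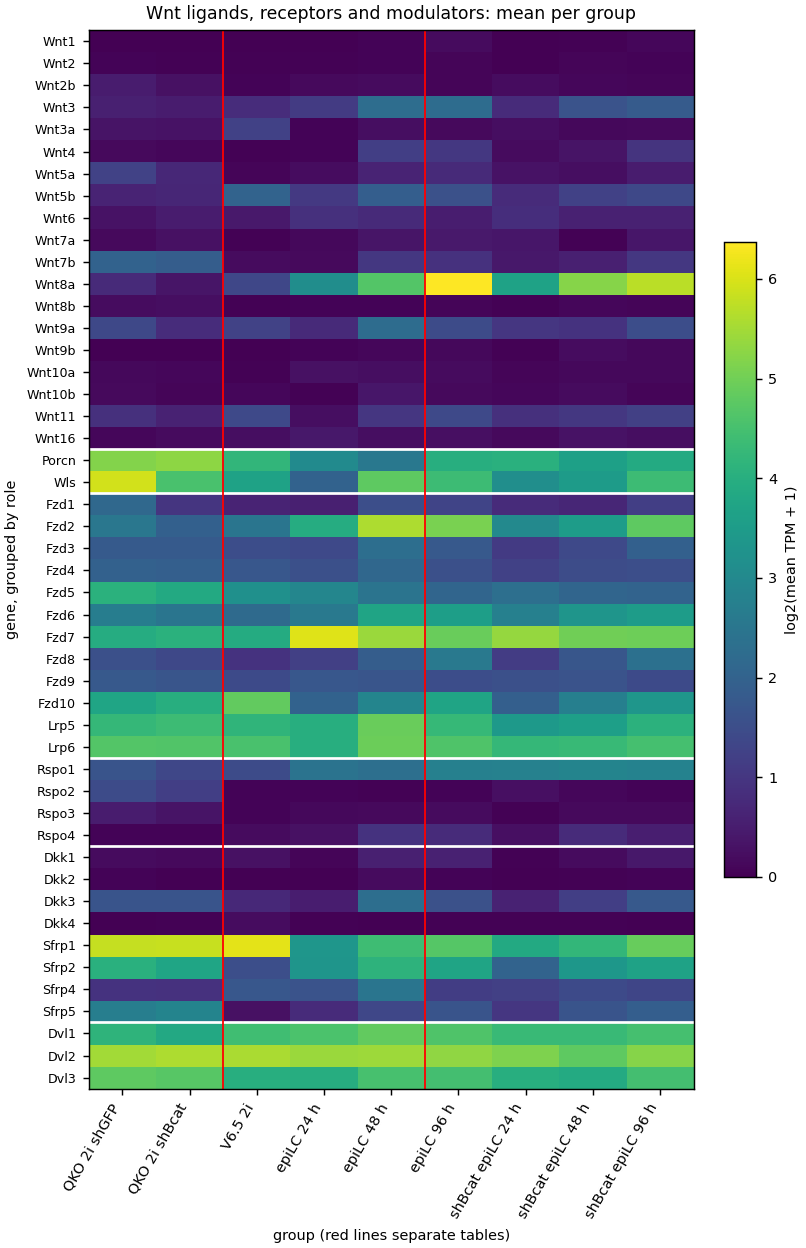
Heatmap of log2(mean TPM + 1) for the 48 members (rows, grouped by role) in the 9 groups with TPM values (columns), with red lines between separately normalised tables. Receptors, Lrp5, Lrp6 and the Dishevelled genes are present in nearly all columns, whereas most ligand rows are near 0 and Wnt8a is highest at 96 h.

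The first comparison asked how knockdown of β-catenin changed these genes in V6.5 cells in 2i. Porcn fell 3.70-fold and the receptor Fzd10 3.24-fold, the ligand Wnt5b fell from a low level, and the inhibitor Sfrp4 and the receptor Fzd5 rose. In all, 5 of the 21 tested members passed an adjusted p of 0.05, 2 higher and 3 lower, while 8.71% of all genes tested did, 3.51% higher and 5.21% lower. Adjusted p-values throughout are from limma on log2(value + 1), with Benjamini-Hochberg adjustment over all genes of the table tested, and log2 differences are on that scale, which understates changes of low genes. The tested members' median log2 difference was 0.13, beside 0.01 for all genes tested.

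Porcn (chrX:8193846-8206548) read 3.99 and 4.01 FPKM in the shBcat libraries and 12.8, 14.8 and 16.5 FPKM at the lowest, median and highest of the 6 shGFP libraries. The groups did not overlap, and the mean was 3.70-fold lower (log2 difference -1.65, SE 0.21, adjusted p = 0.000872). Fzd10 read 3.67 and 3.98 FPKM with shBcat and 8.82, 13.2 and 15.6 FPKM with shGFP. Both shBcat values lay below every shGFP value, a 3.24-fold lower mean (log2 difference -1.45, SE 0.20, adjusted p = 0.00161). Wnt5b, a ligand best known for signalling without β-catenin, read 0.218 and 0.177 FPKM with shBcat and 0.779, 1.42 and 1.90 FPKM with shGFP. The groups again did not overlap, and the log2 difference was -0.92 (SE 0.19, adjusted p = 0.0131).

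Sfrp4 (chr13:19623175-19632825), a secreted Wnt-binding protein, read 2.2 and 2.23 FPKM with shBcat and 0.732, 0.815 and 1.04 FPKM with shGFP. Both shBcat libraries stood above every shGFP library, and the mean was 2.63-fold higher (log2 difference 0.81, SE 0.09, adjusted p = 0.000467). Fzd5 (chr1:64730558-64737750), a receptor, read 10.1 and 9.88 FPKM with shBcat and 5.27, 6.67 and 8.24 FPKM with shGFP. It too did not overlap, with a mean 1.51-fold higher (log2 difference 0.54, SE 0.14, adjusted p = 0.0422). Libraries of the 2 groups did not overlap for 11 members, where 34.2% of all genes tested had this property. The test took genes at 1 FPKM or more in at least 2 libraries. For Sfrp4 both shBcat libraries were above 1 FPKM and the shGFP median was below it. For Wnt5b the shGFP median was above 1 FPKM and both shBcat libraries were below it. Entry to the test can therefore favour the direction of these calls, and the counts above include them.

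Wnt8a had a large difference in level and did not pass the test. It read 0.102 and 0.179 FPKM with shBcat and 1.46, 1.81 and 2.16 FPKM with shGFP, a 12.7-fold lower mean without overlap (log2 difference -1.28, SE 0.63, adjusted p = 0.262). One shHP1r library far above the others entered the same fit: with shBcat and shGFP fitted alone, a fit added after seeing the data, the adjusted p was 0.000923, and with a pseudocount of 0.1 it was 0.0346. Over all alternatives for Wnt8a it ran from 0.000923 to 0.702. Wnt3 read 0.130 and 0.115 FPKM with shBcat and 0.324, 0.557 and 1.33 FPKM with shGFP (log2 difference -0.61, adjusted p = 0.191). The receptors Fzd7 and Fzd2 each had a log2 difference of 0.64, with adjusted p = 0.0528 and 0.0598. Lrp6, Sfrp1, Wls and Dvl2 overlapped between the groups: Lrp6 was 13.8 and 13 FPKM with shBcat and 10.2 to 13.6 FPKM with shGFP, and Wls 2.54 and 2.44 against 1.19 to 3.40 FPKM.

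The call for Fzd5 was lost when any one library other than shGFP replicate 2 was left out (adjusted p 0.0512 to 0.326) and with the compared groups fitted alone (adjusted p = 0.0647), and that for Wnt5b without shBcat replicate 1 or 2 (adjusted p 0.145 and 0.165). With the close pairs of libraries averaged, which leaves 1 shBcat value that is assumed to vary as the 3 shGFP values do, no member passed, and Porcn had an adjusted p of 0.230.

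**Figure D2:**
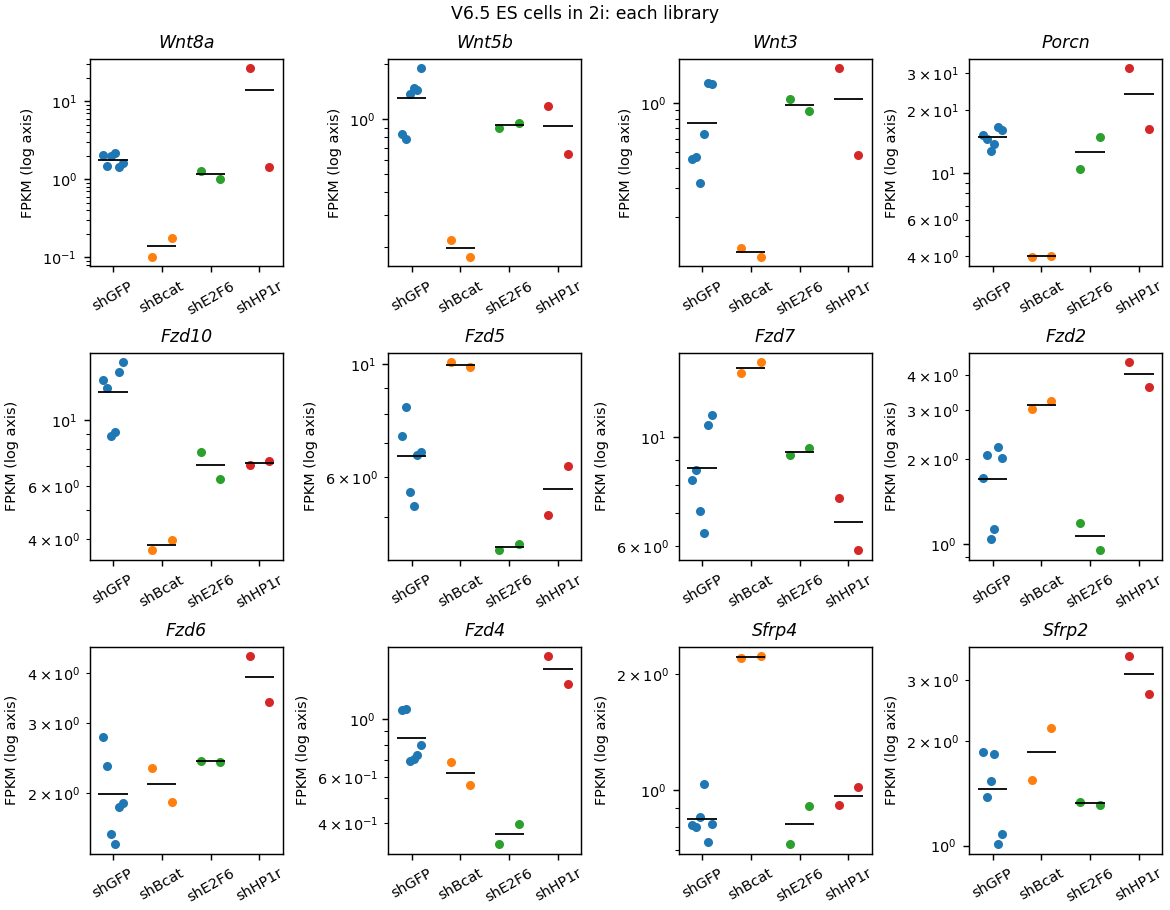
FPKM on a log axis for 12 members in the V6.5 libraries in 2i, 1 dot per library and a black line at each group mean, for shGFP (6 libraries), shBcat, shE2F6 and shHP1r (2 each). The shBcat dots of Porcn, Fzd10, Wnt5b, Wnt8a and Wnt3 lie below all shGFP dots, those of Sfrp4 and Fzd5 above, and 1 shHP1r library of Wnt8a is at 26.3 FPKM.

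The same comparison over other Wnt pathway genes gives the setting. Of 8 tested Wnt feedback and target genes, 5 fell with shBcat and none rose, with a median log2 difference of -1.46, and among them were Axin2 (-2.80), Tnfrsf19 (-1.93), Cdx1 (-4.03) and T (-0.80). Of 15 destruction complex and catenin genes, 3 fell, which were Ctnnb1 itself, Gsk3b (-0.55) and Gsk3a (-0.34). Of 13 Tcf/Lef and partner genes, Tcf7 (-0.35) and Tle4 (-0.38) fell. Among 16 other Wnt receptors and modulators, the proteoglycan Gpc3 rose by 1.64, and the receptor Ror2 (-1.38) and the extracellular Wnt inhibitor Notum (-1.31) fell. Of 10 planar polarity genes, Celsr3 rose by 1.01 and Prickle2 fell by 0.40. The list of feedback genes was chosen with earlier results of these data known and is no independent evidence of its direction.

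No member passed the test with shE2F6 against shGFP, the same 6 control libraries as before. By limma, 6 of the 21 tested members had an unadjusted p under 0.05, beside 33.7% of all genes, and 1.06% of all genes passed after adjustment. The members' median log2 difference was -0.24, and the median of all genes was -0.20. Under median-of-ratios scaling the all-gene median moved to -0.04, and the all-gene calls moved from 59 higher and 94 lower to 139 higher and 95 lower, with no member called in either case. The groups did not overlap for 5 members, all lower with shE2F6, and for 33.8% of all genes. The receptors came nearest: Fzd4 read 0.333 and 0.398 FPKM with shE2F6 and 0.695, 0.763 and 1.10 FPKM with shGFP (log2 difference -0.43, adjusted p = 0.0730). Fzd10 read 7.82 and 6.35 FPKM, below the 8.82 FPKM of the lowest shGFP library (log2 difference -0.71, adjusted p = 0.0761). Fzd5 read 4.30 and 4.42 FPKM, below the lowest shGFP value of 5.27 FPKM (log2 difference -0.49, adjusted p = 0.0790). Without shGFP replicates 3 and 4 together, the libraries with the high mitochondrial share, 9 members were called, all lower, with 1705 higher and 6801 lower calls over all genes. Without replicate 3 alone 5 members were called, beside 4165 of all 14407 genes, and without replicate 4 alone 4, beside 3435. The counts of members and of all genes both rest on those libraries, and the part of the mitochondrial share was not tested. Of the other pathway lists, Ctbp1, a transcriptional co-repressor, was the one gene called (-0.73).

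With shHP1r, 4 members rose against shGFP and none fell: Fzd2, Fzd4, Fzd6 and Sfrp2. This is 4 of 21 tested, where 7.59% of all genes passed, 5.89% higher and 1.7% lower. Fzd2, a receptor, read 4.44 and 3.61 FPKM with shHP1r and 1.04, 1.88 and 2.21 FPKM with shGFP, without overlap (log2 difference 0.91, SE 0.18, adjusted p = 0.0134). Sfrp2, a secreted inhibitor, read 3.52 and 2.73 FPKM and 1.01, 1.46 and 1.86 FPKM, again apart (log2 difference 0.76, SE 0.16, adjusted p = 0.0179). Fzd6, a receptor tied to planar polarity, read 4.41 and 3.39 FPKM and 1.49, 1.87 and 2.76 FPKM (log2 difference 0.72, SE 0.16, adjusted p = 0.0223). Fzd4, also a receptor, read 1.75 and 1.37 FPKM and 0.695, 0.763 and 1.10 FPKM (log2 difference 0.47, SE 0.12, adjusted p = 0.0376). For each of these genes both shHP1r libraries were above all 6 shGFP libraries. In all, 8 members did not overlap between the groups, beside 24% of all genes tested. For Fzd4 both shHP1r libraries were above 1 FPKM and the shGFP median was below it, so entry to the test can favour the direction of its call.

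The 2 shHP1r libraries differed from each other by a median absolute log2 difference of 0.19, beside 0.05 for the shBcat pair and 0.11 for the shE2F6 pair, and they were far apart for Wnt8a. Wnt8a was 26.3 FPKM in shHP1r replicate 1 and 1.43 FPKM in replicate 2, where shGFP ran from 1.46 to 2.16 FPKM, so the log2 difference of 1.55 came from 1 library (adjusted p = 0.173), and without replicate 1 it was -0.19. Porcn was 31.5 and 16.3 FPKM and Wnt3 1.62 and 0.477 FPKM in the same order. Without shHP1r replicate 1, none of the 4 calls held, with adjusted p-values of 0.189 for Fzd2, 0.246 for Sfrp2, 0.280 for Fzd6 and 0.364 for Fzd4, and without shHP1r replicate 2 the test called 7 members. Fzd4 also lost its call without any one of shGFP replicates 3 to 6 (adjusted p 0.0609 to 0.0764), and no member passed with the close pairs averaged. The 3 listed fibroblast markers summed to 3.32 to 5.20 FPKM with shHP1r and 0.677 to 1.63 FPKM with shGFP. Thy1 made up most of this sum, at 4.59 and 2.97 FPKM with shHP1r and 0.571 to 1.49 FPKM with shGFP, and was called higher by limma (log2 difference 1.22, adjusted p = 0.00328). On another scale, Thy1 was also at 7.44 and 8.74 TPM in 24 h epiLC cells. Col1a1 was 0.358 and 0.206 FPKM with shHP1r, overlapping shGFP. Col1a2 was 0.247 and 0.141 FPKM, above all shGFP libraries at 0.00781 to 0.0545 FPKM, and both collagen genes were too low to be tested. The part of these markers in the results was not tested.

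Set against the shBcat libraries rather than shGFP, the other hairpins place the same genes from the other side, and since these comparisons share the shBcat libraries they are not independent. With shHP1r, 7 of 21 members were called, 3 higher and 4 lower, beside 9.31% of all genes, 6.97% higher and 2.34% lower. The libraries did not overlap for 19 members and for 65.4% of all genes. Porcn was higher, at a mean of 23.9 against 4.00 FPKM (log2 difference 2.25, SE 0.25, adjusted p = 0.000163). Fzd4 (log2 difference 0.65, adjusted p = 0.0168) and Wnt8a (2.84, adjusted p = 0.0450) were higher too, the latter with the uneven shHP1r libraries given above. With the compared groups fitted alone, Wnt8a (adjusted p = 0.203) and Fzd4 (adjusted p = 0.0571) were not called. Nor was Wnt8a called with the replicate block (adjusted p = 0.0623). The lower members were Sfrp4 (-0.71, adjusted p = 0.00213), Fzd7 (-0.95, adjusted p = 0.0215), Fzd5 (-0.72, adjusted p = 0.0261) and Sfrp1 (-0.76, adjusted p = 0.0340). Sfrp1 was not called under median-of-ratios scaling (adjusted p = 0.0890). Entry to the test can favour the direction of the calls for Fzd4 and Sfrp4, as above. Porcn and Sfrp4 kept their calls whichever library was left out. Sfrp1 lost it in all 4 runs that left out a library (adjusted p 0.110 to 0.194). Wnt8a lost it without either shBcat library (adjusted p 0.198 and 0.215), as did Fzd7 (0.113 and 0.144), Fzd5 (0.160 and 0.143) and Fzd4 (0.0821 and 0.150). Fzd7 also lost it without shHP1r replicate 2 (adjusted p = 0.102), and Fzd5 and Fzd4 without shHP1r replicate 1 (adjusted p = 0.174 and 0.109).

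With shE2F6 against shBcat, 4 of 21 members were called, 1 higher and 3 lower, beside 15.2% of all genes, 5.01% higher and 10.2% lower. Here 20 members, and 84.9% of all genes, had no overlap between the libraries. Mitochondrial transcripts took 22.3% and 22.9% of the summed FPKM with shE2F6 and 9.99% and 10.3% with shBcat. Hairpin and this difference between the libraries cannot be told apart, and its part in the calls was not tested. Porcn was again higher, at 12.7 against 4.00 FPKM (log2 difference 1.43, SE 0.25, adjusted p = 0.00791). The lower members were Sfrp4 (-0.83, adjusted p = 0.00244), Fzd5 (-1.04, adjusted p = 0.00668) and Fzd2 (-1.001, adjusted p = 0.0216). For Sfrp4 entry to the test can favour the direction of the call, as above. The median of all genes was -0.20 here too and moved to -0.02 under median-of-ratios scaling, under which 3 members were called higher and 4 lower and the all-gene split went from 722 higher and 1474 lower to 1245 and 1381. Sfrp4 kept its call in every run that left out a library. Porcn and Fzd5 lost it without shBcat replicate 1, shBcat replicate 2 or shE2F6 replicate 2 (adjusted p 0.0707 to 0.0889 and 0.0606 to 0.0684), and Fzd2 in all 4 runs (adjusted p 0.0765 to 0.148).

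In QKO cells no member passed the test with shBcat against shGFP. Of 27 tested members, 9 had an unadjusted p under 0.05 by limma, beside 28.7% of all genes, and 2.15% of all genes passed after adjustment. The members' median log2 difference was -0.12, beside -0.04 for all genes. Neither Porcn nor Fzd10 was lower: Porcn read 36.3, 40.0 and 38.8 TPM with shBcat and 36.4, 34.0 and 35.9 TPM with shGFP, and Fzd10 14.8, 15.7 and 14.8 against 13.1, 11.3 and 12.9 TPM (log2 difference 0.26, adjusted p = 0.0744). The groups of Fzd10 did not overlap, with shBcat above, and those of Porcn did. Absence of overlap was seen for 12 members and for 35.6% of all genes. Sfrp4 read 0.66, 0.75 and 1.26 TPM with shBcat and 0.79, 0.89 and 1.00 TPM with shGFP, with overlap. Axin2, the feedback gene, was 5.64 TPM with shBcat and 5.82 TPM with shGFP. Whether the effect of the hairpin differed between QKO and V6.5 cells was not tested.

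In QKO cells Wls, Fzd1 and Fzd2 came nearest to the threshold, all lower with shBcat. Wls, the ligand carrier (chr3:159839650-159938666), read 26.5, 21.9 and 18.2 TPM with shBcat and 53.7, 82.1 and 43.3 TPM with shGFP, a 2.69-fold lower mean without overlap (log2 difference -1.35, SE 0.25, adjusted p = 0.0528). Fzd1 read 1.13, 0.95 and 0.82 TPM and 2.96, 4.98 and 2.29 TPM (log2 difference -1.12, SE 0.22, adjusted p = 0.0510). Fzd2 read 3.03, 2.64 and 3.01 TPM and 4.66, 5.64 and 4.09 TPM (log2 difference -0.57, SE 0.12, adjusted p = 0.0533). In each of these genes shGFP replicate 2 was the highest library and replicate 3 the lowest of its group, and no shBcat library reached it. Without shGFP replicate 3 all 3 passed, with adjusted p-values of 0.0365, 0.0295 and 0.0386. In that run 932 of all genes passed, where 334 did with all libraries. Over all alternatives the adjusted p ran from 0.0365 to 0.171 for Wls and from 0.0295 to 0.167 for Fzd1.

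Between the groups, fibroblast markers moved the same way. The 8 fibroblast markers, all measured and none at 0 throughout, summed to 55.8, 72.5 and 83.7 TPM in the shBcat libraries and 328, 554 and 235 TPM in the shGFP libraries, and 5 of the 7 tested fell. Those 5 were Col1a1 (-2.19), Col3a1 (-2.41), Dcn (-2.13), Postn (-2.16) and Lum (-1.43). In V6.5 cells in 2i the same markers summed to 3.01 to 4.07 TPM. Within the shGFP group Wls, Fzd1, Fzd2 and the marker sum had the same order of libraries. Within the shBcat group Wls and Fzd1 were lower from replicate 1 to 3 while the marker sum was higher, and Fzd2 was lowest in replicate 2. The part of the markers in the values of Wls, Fzd1 and Fzd2 was not tested. In bulk RNA, fewer cells of a type and less RNA per cell cannot be told apart.

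**Figure D3:**
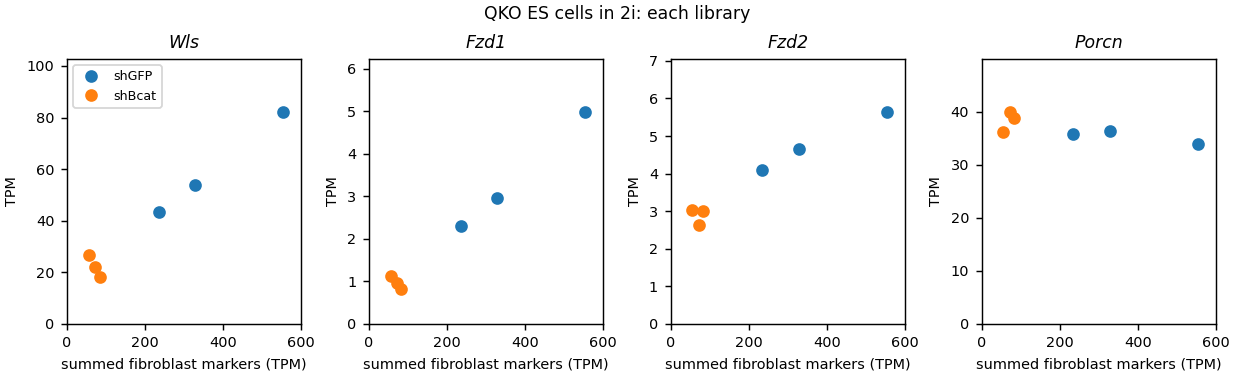
TPM of Wls, Fzd1, Fzd2 and Porcn (y axis) against the summed TPM of 8 fibroblast markers (x axis) in the 6 QKO libraries, with shGFP in blue and shBcat in orange. The shGFP libraries have the higher marker sums, 235 to 554 TPM, and the higher Wls, Fzd1 and Fzd2, while Porcn lies between 34.0 and 40.0 TPM in all 6.

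Of the other pathway lists in QKO cells, Ctnnb1 fell, Ccnd1 fell by 0.34 among 6 tested feedback and target genes, and Vangl1, a planar polarity gene, rose by 0.39.

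The widest changes came with the move of V6.5 cells from 2i to epiLC medium, where most genes of the genome changed too. At 24 h against 2i, 24 of the 30 tested members were called, 11 higher and 13 lower, while 76% of all genes were called, 36.2% higher and 39.8% lower. At 48 h against 24 h, 26 were called, 23 higher and 3 lower, beside 74.2% of all genes, 45.2% higher and 28.9% lower. At 48 h against 2i, 29 were called, 22 higher and 7 lower, beside 75.9% of all genes, 45.1% higher and 30.8% lower. The libraries did not overlap for 27 members at the first step, where 87.7% of all genes had none, for 28 at the second, beside 86.9%, and for 30 over the whole span, beside 87.2%. The median log2 difference of the tested members was -0.10 at 24 h (all genes -0.04), 0.85 from 24 to 48 h (all genes 0.12) and 0.77 over the whole span (all genes 0.11). Some of these 30 passed the filter on low values only through the group where they are high. Among them were Wnt4 and Dkk3, through 48 h, and Wnt3a, through 2i. Entry to the test favoured the direction of their calls, and the counts above include them. The 3 comparisons share libraries.

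Among the ligands, Wnt8a and Wnt3 rose at both steps. Wnt8a read 1.58 and 1.56 TPM in 2i, 8.11 and 7.24 TPM at 24 h and 27.5 and 21.6 TPM at 48 h. It was the highest ligand at 24 and 48 h, with log2 differences of 1.75 (SE 0.11, adjusted p = 1.02e-05) and 1.55, and its 48 h mean was 15.6-fold that in 2i. Wnt3 read 0.85 and 0.68, then 1.20 and 1.14, then 3.93 and 3.68 TPM. Its changes were 0.30 and 1.15 on the log2 scale, and no library of one time overlapped another. Wnt9a, Wnt5b and Wnt11 fell at 24 h and rose again: Wnt9a read 1.46 and 1.29, 0.68 and 0.72, and 3.56 and 3.94 TPM.

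Wnt5b ended near where it began, at 3.06 and 3.12 TPM in 2i, 1.21 and 0.96 TPM at 24 h and 2.72 and 2.75 TPM at 48 h, and at 48 h against 2i was not called (log2 difference -0.13, adjusted p = 0.212). Wnt11 ended lower than in 2i (log2 difference -0.39) and Wnt9a higher (1.00). Wnt3a, a ligand that acts through β-catenin, fell from 1.32 and 1.39 TPM to 0.05 and 0.04 TPM at 24 h and stood at 0.19 and 0.17 TPM at 48 h. Wnt4 was at 0.03 to 0.04 TPM in the first 4 libraries and 1.24 and 1.28 TPM at 48 h, a log2 rise of 1.12. The summed level of all 19 ligands was 10.8 TPM in 2i, 12.9 TPM at 24 h and 40.8 TPM at 48 h.

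The 2 ligand processing genes parted. Wls read 12.4 and 11.1 TPM in 2i, 3.24 and 2.79 TPM at 24 h and 25.1 and 27.9 TPM at 48 h. It fell by 1.67 on the log2 scale and then rose by 2.78 (SE 0.09, adjusted p = 7.1e-07), an 8.79-fold rise in the mean. Porcn fell at both steps, from 16.9 and 17.6 TPM to 7.12 and 7.54 TPM and then to 4.89 and 4.78 TPM. Its log2 differences were -1.13 (SE 0.06, adjusted p = 2.96e-06) and -0.51.

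The receptors changed in opposite directions within the family. Fzd7 rose from 14.2 TPM in both 2i libraries to 65 and 65.6 TPM at 24 h (log2 difference 2.13, SE 0.03, adjusted p = 4.95e-08) and then fell to 41.6 and 42.2 TPM. Fzd2 rose at each step, from 4.70 and 4.39 TPM to 14.5 and 14.4 TPM and then 47.4 and 47.2 TPM, 10.4-fold in all. Fzd10, the receptor that was lower with shBcat in 2i, fell from 27.5 TPM in both libraries to 3 and 3.07 TPM at 24 h (log2 difference -2.82, SE 0.09, adjusted p = 4.03e-07). It then stood at 7.09 and 5.79 TPM, so Fzd10 had the highest mean of the Frizzled genes in 2i, Fzd7 at 24 h and Fzd2 at 48 h.

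Fzd5, the receptor that was higher with shBcat in 2i, fell at both steps, from 8.25 and 8.10 TPM to 6.72 and 6.40 TPM and to 4.30 and 4.65 TPM. Fzd6 and Fzd8 rose at both steps, by 0.36 and 1.14 and by 0.28 and 0.67 on the log2 scale, and Fzd9 was called at the first step alone, with a rise of 0.29. Fzd1, Fzd3 and Fzd4 were called at the second step alone, with rises of 0.99, 0.88 and 0.60. Fzd1, Fzd3, Fzd4 and Fzd9 were also called at 48 h against 2i. The co-receptors moved together: Lrp5 read 16.5 and 17.4, 15.3 and 14.7, and 28.8 and 29.6 TPM, and Lrp6 22.6 and 21.7, 14.9 and 14.8, and 29.2 and 29.8 TPM. Each fell at 24 h, by 0.16 and 0.55 on the log2 scale, and rose by 0.92 and 0.95 at 48 h.

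Of the secreted inhibitors, Sfrp1 and Sfrp2 changed in opposite directions at 24 h. Sfrp1 fell from 67.0 and 68.6 TPM in 2i to 9.04 and 9.35 TPM at 24 h (log2 difference -2.75, SE 0.04, adjusted p = 4.58e-08) and rose to 20.2 and 19.4 TPM at 48 h. Sfrp2 rose from 1.84 and 1.91 TPM to 8.75 and 9.19 TPM and then 16.0 and 16.5 TPM. The levels of both genes overlapped at 24 h, after a wide gap in 2i, and Sfrp1 was the higher again at 48 h. Dkk3, a Dickkopf relative that does not act as the others do on Lrp6, fell from 0.68 and 0.67 to 0.48 and 0.39 TPM and rose to 4.02 and 3.90 TPM. Sfrp5 rose at both steps (0.48 and 0.58), and Sfrp4 was called at the second step alone (0.86).

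Rspo1, an R-spondin agonist, rose at 24 h by 0.98 on the log2 scale, from 1.40 and 2.13 TPM to 4.55 and 4.24 TPM, and was 4.13 and 3.87 TPM at 48 h. The Dishevelled genes, which relay the signal inside the cell, had small changes. Dvl1 rose by 0.13 and 0.29, Dvl2 fell by 0.16 at 24 h, from 46.0 and 47.0 to 42.0 and 41.3 TPM, and Dvl3 rose by 0.57 from 24 to 48 h.

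At 24 h the calls for Wnt3, Lrp5, Dvl1, Dkk3, Fzd8 and Fzd9 were lost in 2 to 4 of the 4 runs that left out a library (adjusted p 0.0503 to 0.165), and each of the 4 libraries ended at least 1 of them. At 48 h against 2i, Fzd9 lost its call in all 4 such runs (adjusted p 0.0518 to 0.194), and no other member did. From 24 to 48 h no call was lost in these runs. Median-of-ratios scaling moved the all-gene split from 24 to 48 h from 7490 higher and 4789 lower to 6464 and 5774, and that from 2i to 48 h from 7474 and 5093 to 6513 and 5974, with 23 higher and 4 lower and 21 higher and 7 lower among the members.

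**Figure D4:**
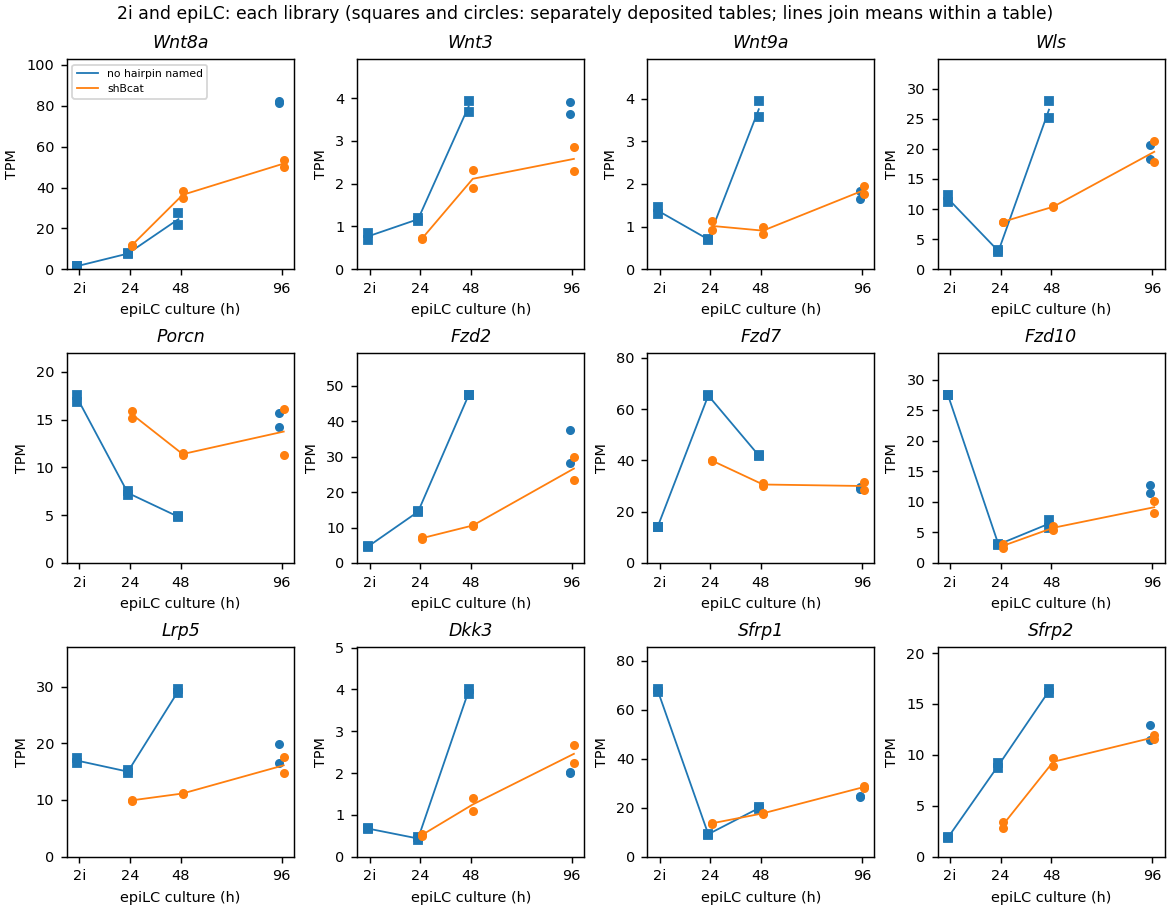
TPM of 12 members (y axis) against hours in epiLC medium (x axis, 2i at 0), with blue for cells with no hairpin named and orange for shBcat, and squares and circles for separately normalised tables. Lines join group means within a table. Fzd10, Sfrp1 and Porcn drop after 2i, Fzd7 peaks at 24 h, and Wnt8a and Fzd2 climb.

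Other pathway genes shifted around the members in the same libraries. At 24 h, where 76% of all genes were called, 11 of 15 Tcf/Lef and partner genes rose and 3 fell. Among them were Lef1 (2.96), Tle4 (1.64) and Ctbp2 (1.16), which all rose. Of 10 feedback and target genes, 3 rose and 5 fell, with Myc at 5.39, Ccnd1 at 1.74, Axin2 at -1.80 and Cdx1 at -5.14. Of 19 other receptors and modulators, 5 rose and 9 fell, among them the R-spondin receptor Lgr4 (0.80) and its counterpart Rnf43, a ubiquitin ligase that removes Frizzled from the surface (-1.60). From 24 to 48 h, 15 of these modulators rose and 1, Notum (-2.88), fell, and the inhibitor gene Sost rose by 3.07. T and Cdx2, both genes of the primitive streak and posterior embryo, rose by 1.93 and 2.32 over that step. Of the Tcf/Lef and partner genes, 6 rose and 4 fell from 24 to 48 h, with Lef1 (-1.51), Tle4 (-1.17) and Tcf7l1 (-0.74) among those that fell. Of the feedback and target genes, 7 rose and 2 fell, with Myc (-1.02) among the latter. Over all genes 74.2% were called at that step.

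In cells with the β-catenin hairpin the epiLC course was followed at 24, 48 and 96 h, with Ctnnb1 at 94.7, 105 and 144 TPM. From 24 to 48 h, 14 of 29 tested members were called, 12 higher and 2 lower, beside 33.4% of all genes, 15.7% higher and 17.8% lower. From 48 to 96 h, 16 were called, all higher, beside 35% of all genes, 25.2% higher and 9.83% lower. The members' median log2 difference was 0.23 and then 0.30, where that of all genes was -0.02 and 0.09. No overlap between libraries was seen for 24 members at the first step, beside 73.2% of all genes, and for 22 at the second, beside 68.8%. Here too a low member can pass the filter only through a group where it is high. Under median-of-ratios scaling the later step had 14 higher members and none lower, Sfrp2 and Lrp6 being lost, and the all-gene split went from 3856 higher and 1504 lower to 2583 and 2370.

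Wnt8a rose at both steps in shBcat cells, from 11.6 and 12.1 TPM at 24 h to 38.2 and 34.6 TPM at 48 h and 49.8 and 53.6 TPM at 96 h. The log2 differences were 1.54 (SE 0.07, adjusted p = 1.18e-05) and 0.50 (adjusted p = 0.0014). Wnt3 and Wnt5b rose from 24 to 48 h, by 0.85 and 0.44, and Wnt4 and Wnt9a from 48 to 96 h, by 0.62 and 0.58. Wls rose at both steps, from 7.93 and 7.82 to 10.5 and 10.3 and then 21.3 and 17.7 TPM, while Porcn, at 16.0 and 15.2, 11.3 and 11.5, and 11.3 and 16.2 TPM, was not called at either step (adjusted p = 0.0531 at the first).

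Among the receptors of shBcat cells, Fzd2 rose from 7.28 and 6.76 TPM to 10.7 and 10.4 TPM and then to 23.4 and 29.8 TPM (log2 differences 0.53 and 1.24). Fzd10 rose from 3.09 and 2.50 TPM to 5.48 and 6.05 TPM and 8.13 and 10.2 TPM, and Fzd8 from 1.35 and 1.03 to 2.23 and 2.24 and 3.76 and 4.44 TPM. Fzd7 fell from 40.0 and 39.6 TPM to 31.1 and 30.1 TPM (-0.37) and was not called at the second step. Fzd6 rose at the first step (0.55), and Fzd1 (0.51), Fzd3 (0.53), Lrp5 (0.49) and Lrp6 (0.22) at the second.

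Of the inhibitors, Sfrp2 rose from 3.38 and 2.81 TPM to 9.73 and 8.91 TPM (log2 difference 1.34) and by 0.30 after that. Sfrp1 rose by 0.35 and 0.66 to 28.7 and 28.2 TPM at 96 h, Dkk3 by 0.56 and 0.62, and Sfrp5 by 0.67 at the first step. Dvl2 fell by 0.34 and then rose by 0.41, and Dvl3 rose by 0.55 at the second step.

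The calls from 24 to 48 h for Wls, Wnt5b and Fzd2 were lost in each of the 4 runs that left out a library, those for Sfrp5 and Fzd8 in 3 and that for Dkk3 without 48 h replicate 1 (adjusted p 0.0534 to 0.133 over these). From 48 to 96 h, Sfrp2 lost its call in all 4 runs, Fzd3, Lrp5 and Lrp6 in 3, Fzd10 without 48 h replicate 1 or 96 h replicate 2, Fzd1 without 48 h replicate 1 and Dvl3 without 48 h replicate 2 (adjusted p 0.05003 to 0.217).

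Set beside the cells without a hairpin, which are in another table and cannot be tested against them, both shBcat libraries lay above both control libraries for 20 members at 24 h and below them for 15. At 48 h they lay above for 9 members, Wnt8a and Porcn among them, and below for 32 of the 48. At 48 h Fzd2 was 10.7 and 10.4 TPM with shBcat and 47.4 and 47.2 TPM without a hairpin, Wls 10.5 and 10.3 against 25.1 and 27.9 TPM, and Porcn 11.3 and 11.5 against 4.89 and 4.78 TPM. The counts take all 48 members with no filter on low values. How many of all genes lay apart in this way was not counted, so the counts show nothing particular to the members. Hairpin and table cannot be told apart in these values and counts.

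At 96 h shBcat and control cells were in 1 table, and here Wnt8a alone was called. It read 49.8 and 53.6 TPM with shBcat and 82.2 and 81.2 TPM in the control, without overlap, a 1.58-fold lower mean (log2 difference -0.65, SE 0.07, adjusted p = 0.00199), and it kept this call in each alternative run. This is 1 of 29 tested members, beside 4.82% of all genes, 2.29% higher and 2.54% lower. The other 28 had log2 differences from -0.42 to 0.26 and adjusted p-values from 0.0934 to 0.990. Nearest to the threshold were Wnt3, at 2.30 and 2.86 against 3.91 and 3.62 TPM (log2 difference -0.42, adjusted p = 0.0934), and Sfrp1, at 28.7 and 28.2 against 25.0 and 24.5 TPM (log2 difference 0.20, adjusted p = 0.101). Neither gene's groups overlapped, which held for 14 members and for 45% of all genes tested.

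The genes called in 2i were not called at 96 h: Porcn read 11.3 and 16.2 TPM with shBcat and 14.2 and 15.7 TPM in the control, with overlap. Fzd10 read 8.13 and 10.2 against 11.5 and 12.8 TPM (log2 difference -0.38, adjusted p = 0.140), and Wnt5b 1.76 and 1.49 against 1.79 and 2.21 TPM. Fzd5 overlapped, at 2.89 and 3.20 against 2.85 and 3.55 TPM. Sfrp4 had means of 1.53 and 1.23 TPM (log2 difference 0.18, adjusted p = 0.446). The difference between the effects in 2i and at 96 h was not tested. Among other pathway genes at 96 h, Lef1 (-0.86), T (-0.74), Cdx2 (-0.54), Gpc3 (-0.42) and Sost (-0.67) fell, and Adgra2 (0.76), a co-receptor for some Wnt ligands, and Gpc4 (0.39) rose.

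**Figure D5:**
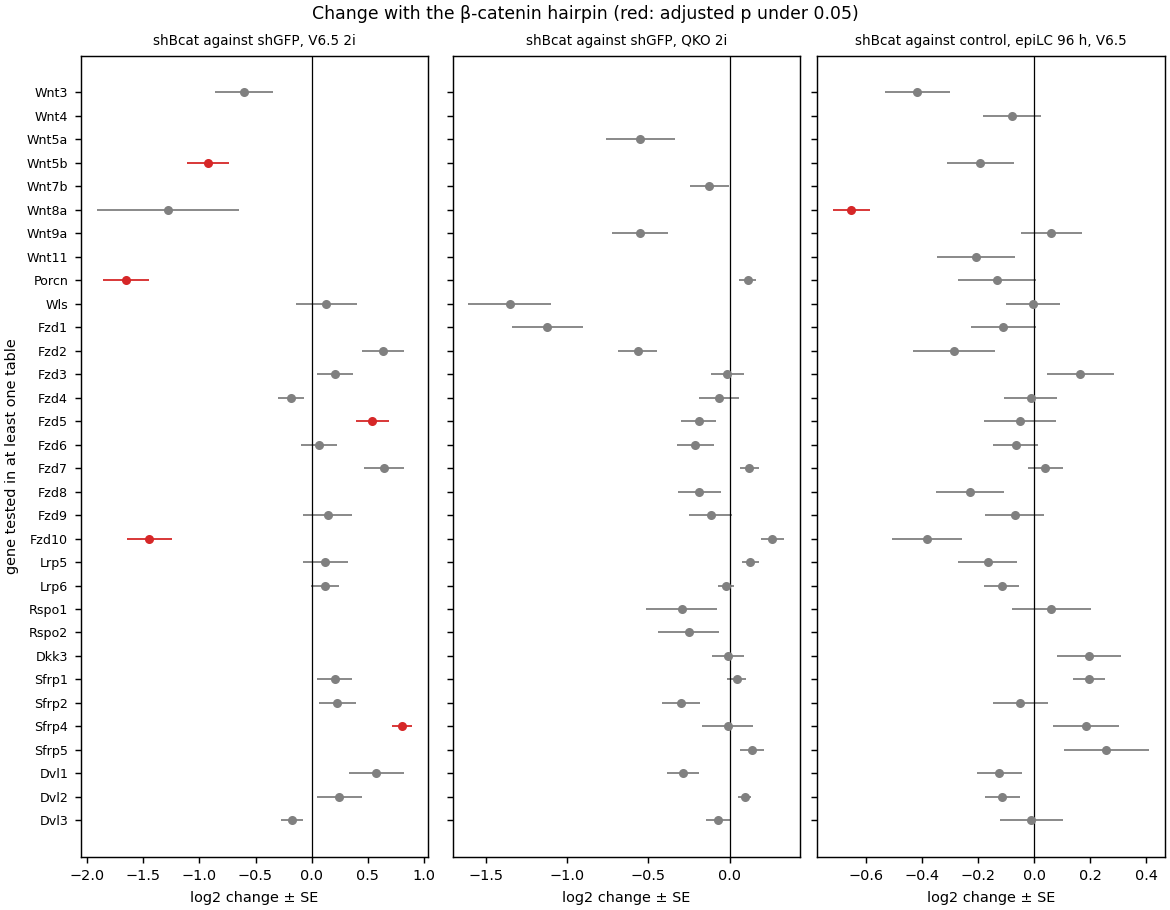
Log2 difference of shBcat against its control (x axis, with the standard error) for each tested member, in V6.5 cells in 2i, QKO cells in 2i and V6.5 epiLC cells at 96 h, with members at an adjusted p under 0.05 in red. Red points are Porcn, Fzd10, Wnt5b, Sfrp4 and Fzd5 in the first panel, none in the second and Wnt8a in the third.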

How the data were processed

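RNA was extracted with TRIzol, treated with DNase and made into libraries with a TruSeq RNA kit, per the labels' protocols. The authors deposited FPKM values for the 12 V6.5 libraries with hairpins in 2i (a table without values of 0) and TPM values, in 3 separately normalised tables, for the other 20. Per the submitters' processing notes, the tools named on the FPKM libraries were bcl2fastq 2.18, TopHat2 2.0.13, Cufflinks 2.2.1 and Bowtie2, and those on the TPM libraries bcl2fastq 2.18, STAR, RSEM and Bowtie2 (versions of the last 3 not given in the sources used here), with build mm10. The values are the authors' and hold no counts, so depth and counting error are unknown, and 1 column of per-sample values was not used. Samples were grouped by the labels. Chromatin immunoprecipitation samples were not analysed here.

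Each table was fitted on its own, all its groups together, with limma 3.58.1 (trend and robust, statmod 1.5.0, R 4.3.3) on log2(value + 1), for genes at 1 or more in at least 2 libraries: 14407 genes in the FPKM table, 15562 in the QKO table, 16559 in the epiLC table without hairpins and 15304 in the shBcat epiLC table. P-values were adjusted over all genes tested with a threshold of 0.05. The steps were tested on simulated data. Every called member is named with values, as is each whose libraries did not overlap with an absolute log2 difference of at least 1, and from each list of other pathway genes up to 4 called members with the smallest p. Groups without overlap were counted as separated whichever group was higher. Alternatives were a pseudocount of 0.1, no filter, a replicate block, median-of-ratios scaling, each library left out, close pairs averaged and, chosen after seeing the data, the compared groups fitted alone. The members, gene lists and tests were chosen with earlier results of these data known. Promoter windows are RefSeq's, on GRCm38.p6.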

Additional observations from a re-analysis of the deposited data

How the results depend on the processing

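No called member changed direction under any alternative run. Calls were most stable in the epiLC course without hairpins, where leaving out a library gave 19 to 21 called members at 24 h against 2i (24 with all libraries), 28 in each run at 48 h against 2i (29) and 26 in each run at 48 h against 24 h (26), and for Wnt8a at 96 h (1 in each run). Calls in the FPKM table depended on the setting. For shBcat against shGFP (5 called), leaving out a library gave 3 to 5, close pairs averaged 0, and shGFP replicates 3 and 4 left out together 8. For shE2F6 against shGFP (0 called) these gave 0 to 5, 0 and 9, and the replicate block gave 8. For shHP1r against shGFP (4 called) they gave 0 to 7, 0 and 8, while no filter gave 7, the replicate block 2 and the compared groups alone 1. For shHP1r against shBcat (7 called), leaving out a library gave 2 to 6, averaged pairs 2 and the replicate block 13. For shE2F6 against shBcat (4 called), leaving out a library gave 1 to 4, averaged pairs 0, shGFP replicates 3 and 4 left out 13, the pseudocount of 0.1 gave 7, median-of-ratios scaling 7, the groups alone 15 and the replicate block 13. In QKO cells (0 called) the smaller pseudocount gave 2 and leaving out a library 0 to 3. The all-gene calls there were 334, and 570 with the smaller pseudocount and 8 to 932 with a library left out. In shBcat epiLC cells leaving out a library gave 8 to 10 members from 24 to 48 h (14) and 10 to 15 from 48 to 96 h (16). The cause was not tested, other than that fewer libraries entered the fits that left some out. In the FPKM table replicate numbers 3 to 6 occur only with shGFP. The replicate block gives each of these libraries a term of its own, so it sets the hairpins against shGFP replicates 1 and 2 alone. Against shGFP it is therefore also a run without shGFP replicates 3 and 4, and not a separate check. Same-numbered libraries were treated as unpaired in the main fits. Their deviations correlated at -0.14 to 0.17 in the FPKM table. The highest value was 0.28, between control and shBcat epiLC cells at 96 h. The replicate block gave 5 called members for shBcat against shGFP in 2i, Fzd5 not among them (adjusted p = 0.0922), and 24, 26, 29, 15, 15 and 1 for the epiLC comparisons at 24 h, 48 h against 24 h, 48 h against 2i, shBcat 48 h, shBcat 96 h and shBcat against control. Over all 14407 genes tested, shE2F6 against shGFP had 153 calls, 7685 with the block and 8506 without shGFP replicates 3 and 4. For shE2F6 against shBcat the all-gene calls were 2196, and 9358 with the groups alone, 7826 with the block and 7653 without those replicates. They were 2597 with the smaller pseudocount and 2626 under scaling. For shHP1r against shBcat they were 1341, and 3319 with the block. Without shGFP replicates 3 and 4, shBcat against shGFP had 2856 and shHP1r against shGFP 2332. For shHP1r against shGFP the all-gene calls were 1093 in the main fit, and 1847 with no filter, 609 with the block and 559 with the groups alone. Since depth is unknown, differences of genes near 0 cannot be set against counting error.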
